A study of Rattus norvegicus with 12 samples.

Results

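The genes described here are 32 genes of the endoplasmic reticulum (ER) stress response and the unfolded protein response, measured by RNA-seq in rat ovary. They were chosen by name from a list of chaperones, disulfide isomerases, degradation factors, sensors, transcription factors and stress response targets. Measured values did not define the list, but earlier results of these data were known when it was chosen. Of the 19730 genes with a value, 32 were members, and all 32 were among the 13430 genes that were tested because their mean over all libraries reached 1 FPKM. Chac1 reached this mean through its control values alone, and Trib3 through its control and PCOS-MV values. FPKM is the number of fragments of a gene divided by its length and by the library's mapped fragments, so it allows levels of different genes to be compared per length.

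The libraries came from whole ovaries of 12 wild type Sprague Dawley rats at postnatal week 15, with 1 library per rat and 4 rats per group. The control group was untreated. The PCOS group received letrozole, an aromatase inhibitor that blocks the conversion of androgens to estrogens, for 30 days, and per the study's methods a high-fat diet together with it. The PCOS-MV group received the same and then mogroside V (MV), a sweet triterpene glycoside of the fruit of Siraitia grosvenorii, for 30 days. In the study's methods, letrozole and the diet were given until the MV period began, and all rats were killed at its end. The PCOS and PCOS-MV ovaries were thus taken about 30 days after letrozole stopped. Per the study's methods, rats entered the PCOS and PCOS-MV groups only if their vaginal smears stayed in metestrus and diestrus, and the control rats ate standard food, so letrozole, diet and this selection cannot be told apart. The sources used here give neither a vehicle for the PCOS group during the MV period nor the estrous stage at which each ovary was taken.

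Secreted and membrane proteins fold in the ER with the help of chaperones and disulfide isomerases, and proteins that fail to fold are sent back to the cytosol for degradation. When unfolded proteins build up, the sensors Ire1 (gene Ern1), Perk (Eif2ak3) and Atf6 start the unfolded protein response. Ire1 splices the mRNA of Xbp1, Atf6 is cut to release a transcription factor, and Perk phosphorylates eIF2alpha, which slows translation and raises Atf4. Xbp1 and Atf6 raise chaperone and degradation genes, while Atf4 raises a set of amino acid and stress genes that kinases other than Perk can also start, known as the integrated stress response. In the ovary, follicle growth, steroid synthesis and the making of the corpus luteum all load the ER.

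The transcription factors of the response are known to act through short DNA motifs, and the members that hold one near their start site are shown because these motifs are the sequence feature by which targets of the response are known. RefSeq promoters (assembly GRCr8, 250 bases before to 50 bases after the start site) were at hand for 26 of the 32 members, and not for Manf, Pdia3, Pdia6, Derl1, Ern1 and Atf6. Both strands were searched for the ER stress element ERSE (CCAAT and CCACG with 9 bases between them), the element ERSE-II (ATTGG and CCACG with 1 base between them), the Xbp1 element UPRE (TGACGTGG) and the Atf4 and C/EBP element CARE (TGATG, 1 base, AA and 1 base). ERSE was in 8 of the 26 members and in 22 of 33469 promoters in all (0.0657%), and ERSE-II was in 3 members and in 17 promoters (0.0508%). Capitals mark the fixed letters of each motif, and positions count from the start site as 0.
Hspa5, ERSE at -43 to -25: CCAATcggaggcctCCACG
Xbp1, ERSE at -65 to -47: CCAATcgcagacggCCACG
Hsp90b1, ERSE at -176 to -158: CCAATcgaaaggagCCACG
Hsp90b1, second ERSE at -72 to -54, opposite strand: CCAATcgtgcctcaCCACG
Calr, ERSE at -232 to -214, opposite strand: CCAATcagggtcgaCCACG
Canx, ERSE at -230 to -212: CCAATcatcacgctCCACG
Creld2, ERSE at -145 to -127, opposite strand: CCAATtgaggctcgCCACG
Derl3, ERSE at -154 to -136, opposite strand: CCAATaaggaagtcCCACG
Dnajc3, ERSE at -133 to -115: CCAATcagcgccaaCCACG
Herpud1, ERSE-II at -124 to -114: ATTGGgCCACG
Hyou1, ERSE-II at -188 to -178, opposite strand: ATTGGcCCACG
Hyou1, second ERSE-II at -88 to -78, opposite strand: ATTGGgCCACG
Dnajb11, ERSE-II at -10 to 0: ATTGGcCCACG
Chac1, CARE at -168 to -160, opposite strand: TGATGcAAc
Herpud1, CARE at -185 to -177, opposite strand: TGATGcAAc
Trib3, CARE at -22 to -14, opposite strand: TGATGtAAa

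CARE was in 3 of the 26 members and in 1328 promoters (3.97%). UPRE, searched only in the exact form TGACGTGG, was in 199 promoters (0.595%) and 1 member, Hyou1, at -191 to -184. There it overlapped the first ERSE-II. Variants of UPRE were not searched. Herpud1 was the member with both an ERSE-II and a CARE match in this window. The 250 bases before the start site are given below for Herpud1 and Chac1, the member called higher and the member with the lowest log2 fold change in the PCOS group, and for Hspa5, the classic marker of ER stress, with the fixed letters of ERSE, ERSE-II and CARE in capitals (a CARE on the opposite strand appears as its reverse complement).
Herpud1, chr19:10614708-10614957, minus strand, GRCr8: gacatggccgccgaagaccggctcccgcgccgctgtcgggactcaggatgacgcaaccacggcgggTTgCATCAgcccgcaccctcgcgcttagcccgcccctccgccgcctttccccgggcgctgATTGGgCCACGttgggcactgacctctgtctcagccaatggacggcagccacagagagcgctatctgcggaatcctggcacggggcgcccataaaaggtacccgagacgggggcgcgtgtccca
Chac1, chr3:126795881-126796130, plus strand, GRCr8: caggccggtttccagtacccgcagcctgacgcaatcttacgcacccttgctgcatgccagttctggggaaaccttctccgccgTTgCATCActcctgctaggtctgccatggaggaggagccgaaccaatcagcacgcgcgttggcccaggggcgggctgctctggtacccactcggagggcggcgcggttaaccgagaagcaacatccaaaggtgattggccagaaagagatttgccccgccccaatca
Hspa5, chr3:38452766-38453015, plus strand, GRCr8: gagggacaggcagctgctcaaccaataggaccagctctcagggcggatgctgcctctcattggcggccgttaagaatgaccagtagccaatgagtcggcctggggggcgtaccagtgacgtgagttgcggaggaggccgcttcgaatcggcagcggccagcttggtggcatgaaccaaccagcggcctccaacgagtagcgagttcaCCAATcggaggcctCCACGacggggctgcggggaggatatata
A match says that the letters are there, and these data hold no measure of factor binding.

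In the coordinates of the authors' file, whose build is not given in the sources used here, Herpud1 lies at chr19:11046909-11057254 (minus strand), Sdf2l1 at chr11:88122271-88124513 (plus), Chac1 at chr3:111160205-111163425 (plus), Syvn1 at chr1:221409271-221417886 (plus) and P4hb at chr10:109736458-109747987 (minus). They differ from those of GRCr8 and cannot be set beside the promoter coordinates. Values below are FPKM in replicates 1, 2, 3 and 4 of a group. The number of reads per library is unknown, since FPKM does not hold it, and FPKM summed over all genes was between 339830 and 373758. Control replicate 3 stood apart: its 4 oviduct epithelium markers with a row summed to 50.4 FPKM, against 1.98 to 5.06 in the other control libraries, 2.52 to 3.33 in PCOS ovaries and 1.61 to 2.58 in PCOS-MV ovaries, and its smooth muscle markers to 888. Among the members, PCOS replicate 3 was the lowest PCOS library for 24 of 32 genes and PCOS replicate 1 the highest for 23, and these counts were 22 and 17 after the libraries were rescaled by their median ratio. PCOS-MV replicate 1 was the lowest of its group for 16 genes and Control replicate 2 the highest of its group for 16. RNA of a whole ovary was measured, so fewer cells of a type and less RNA per cell cannot be told apart in any result below.

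The 32 members together held 0.618% to 0.744% of the summed FPKM in control ovaries, 0.541% to 0.667% in PCOS ovaries and 0.658% to 0.752% in PCOS-MV ovaries. The highest member was Calr, a lectin chaperone that binds calcium, with 379 ± 77.7 FPKM (mean ± SD, n = 4) in the control group, followed by Pdia3 (283 ± 35.5), P4hb (238 ± 47.1), Hspa5 (220.0 ± 22.2) and Hsp90b1 (196 ± 22.9). The values of each of these neighbours in the order overlapped, while Hsp90b1 did not overlap with the next gene, Canx (149 ± 16.1). The sensors stood lower, with 27.5 ± 2.51 for Atf6, 10.7 ± 3.28 for Ern1 and 7.13 ± 0.703 for Eif2ak3. The lowest members were Derl3 (2.49 ± 0.722), Chac1 (1.89 ± 0.652) and Trib3 (1.38 ± 0.615), whose control values overlapped.

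**Figure D1:**
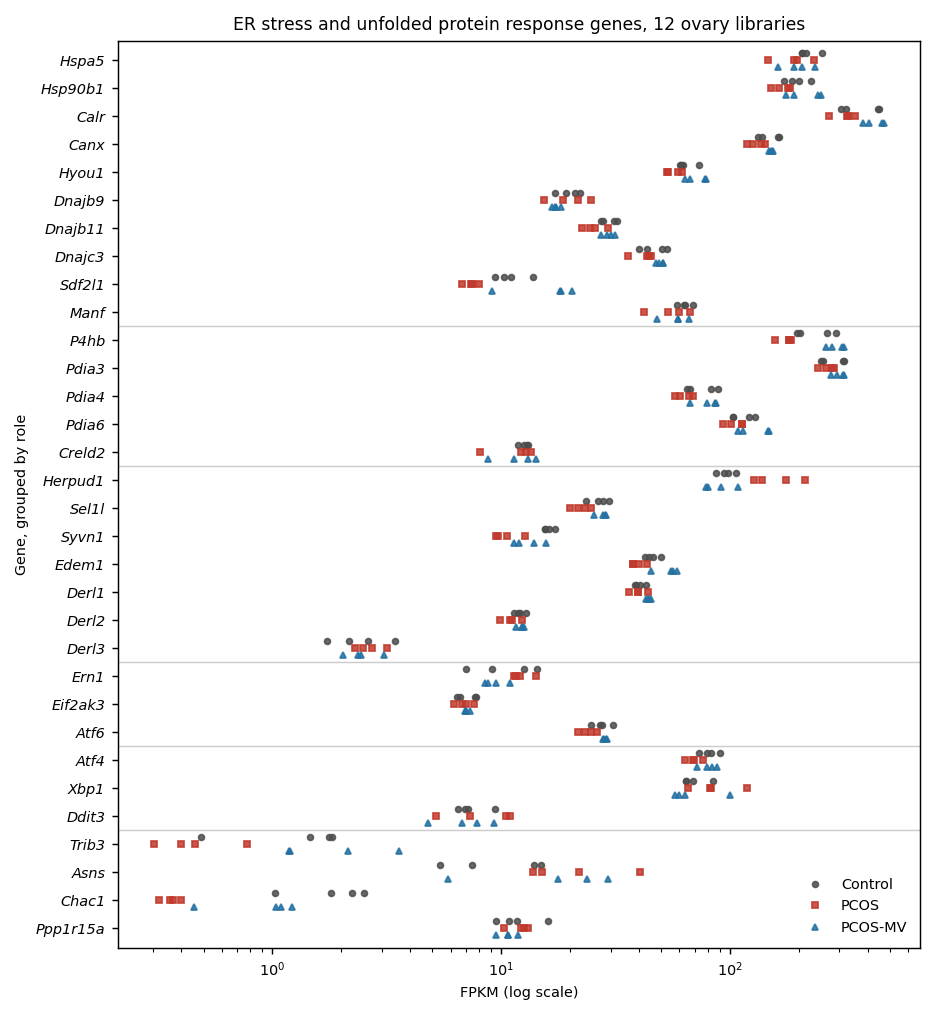
FPKM of the 32 members on a log axis, with 1 point per library for the control, PCOS and PCOS-MV groups (4 libraries each), and lines dividing the roles. Levels ran from under 1 FPKM for Chac1 and Trib3 in the PCOS group to 469 for Calr, and for most genes the 3 groups overlapped, with Herpud1 to the right in the PCOS group and Chac1 to the left.

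The first question was how ovaries of rats given letrozole earlier differed from those of untreated rats. With limma on log2(FPKM + 1), 4 of the 32 members passed an adjusted p of 0.05, which is 12.5%, against 27.4% of all genes tested. Herpud1 was upregulated, 1 member against 11.9% of all genes, and Sdf2l1, Syvn1 and Chac1 were downregulated, 3 members against 15.6%. At an unadjusted p under 0.05 there were 10 members, against 39.4% of all genes. In 24 of the 32 members the log2 fold change was negative, with a median of -0.18 over the members and -0.03 over all genes tested. The groups did not overlap for 5 members, against 31.0% of all genes: Herpud1 was higher, against 13.8% of all genes, and P4hb, Sdf2l1, Syvn1 and Chac1 were lower, against 17.2%.

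The second question was how the ovaries differed after MV, with the PCOS-MV group set against the PCOS group. Here 12 members passed (37.5%, against 25.7% of all genes tested): 10 were higher after MV, against 14.3% of all genes, and 2 were lower, against 11.4%. The 10 higher genes were Calr, Hyou1, Sdf2l1, P4hb, Pdia4, Sel1l, Edem1, Atf6, Trib3 and Chac1, and the 2 lower genes were Herpud1 and Ern1. In 24 members the log2 fold change was positive, with a median of 0.21 over the members and 0.03 over all genes tested. At an unadjusted p under 0.05 there were 19 members, against 38.5% of all genes. The groups did not overlap for 13 members, against 30.0% of all genes: 11 were higher, against 16.7%, and 2 were lower, against 13.3%. Most of these calls were near the threshold: the count of higher members was 3 without PCOS replicate 2 or PCOS replicate 3 and 4 without PCOS replicate 4, PCOS-MV replicate 2 or PCOS-MV replicate 4, and it reached 9 at most. The count of lower members was 1 without PCOS replicate 1, 2 or 4 or PCOS-MV replicate 1, 3 or 4. Both comparisons use the same PCOS libraries, so a value that is high or low in them by chance moves both in opposite directions.

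**Figure D2:**
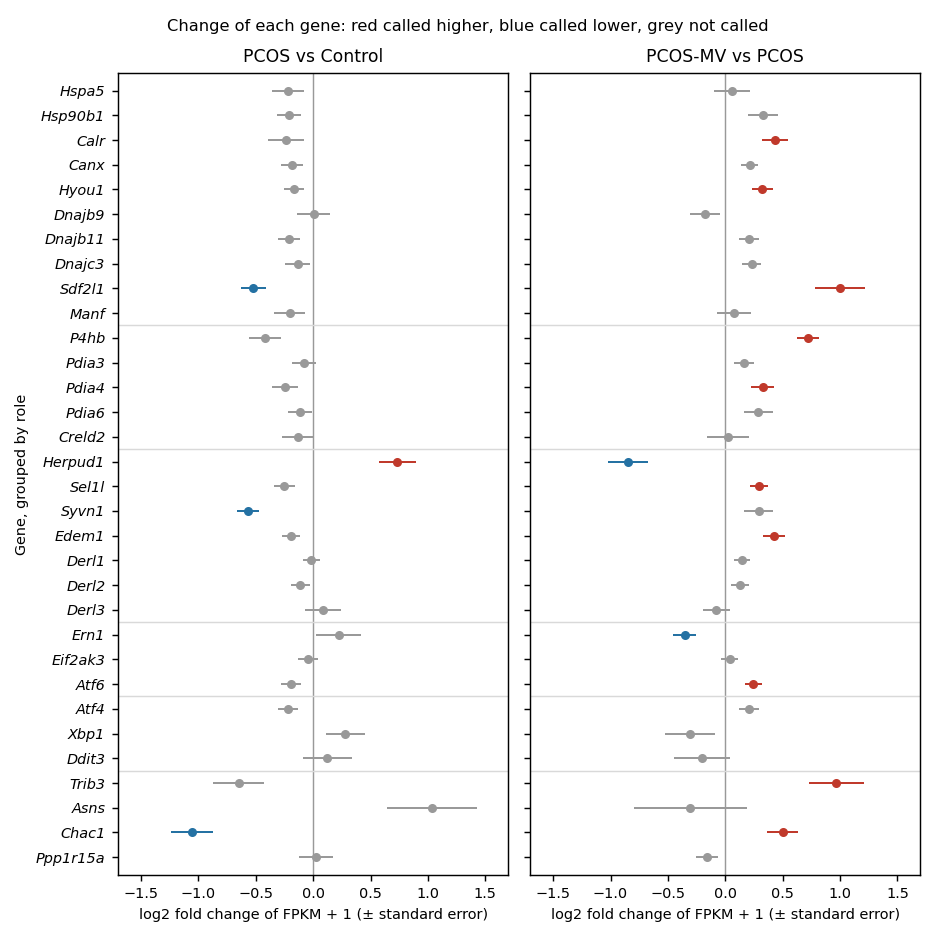
Log2 fold change of each member on the log2(FPKM + 1) scale with its standard error, for PCOS against control on the left and PCOS-MV against PCOS on the right (4 rats per group), with red for called higher, blue for called lower and grey for not called. On the left most points sit slightly below 0, with 3 called lower and Herpud1 called higher, and on the right most sit above 0, with 10 called higher.

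Among the 10 chaperones and co-chaperones, Sdf2l1 was downregulated in the PCOS group and 9 did not pass, and after MV Sdf2l1, Calr and Hyou1 were upregulated and 7 did not pass. That is 10.0% and 30.0% called, against 27.4% and 25.7% of all genes tested. Sdf2l1, an ER protein that works with the Hsp70 chaperone cycle and is strongly induced when proteins misfold, was at 10.3, 13.7, 11.04 and 9.37 FPKM in the control group, at 7.37, 7.96, 6.72 and 7.46 in the PCOS group and at 9.08, 18.2, 20.4 and 18.03 in the PCOS-MV group. All PCOS libraries lay below all others. Its log2 fold change was -0.52 ± 0.11 (SE), adjusted p = 0.00949 in the PCOS group and 1.002 ± 0.22 (SE), adjusted p = 0.0115 after MV, and both calls held in all 8 fits with 1 library left out. With all 12 libraries in 1 fit the difference in the PCOS group did not pass (adjusted p = 0.0777), while that after MV did. PCOS-MV replicate 1 lay below Control replicates 1 to 4, while the other 3 PCOS-MV libraries lay above them.

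Calr was at 448, 443, 319.8 and 304 FPKM in the control group, at 351, 328, 270.2 and 322 in the PCOS group and at 380.3, 460.2, 403 and 469 in the PCOS-MV group. Every PCOS-MV library lay above every PCOS library, while the control libraries spanned both ranges. After MV its log2 fold change was 0.43 ± 0.11 (SE), adjusted p = 0.0252. With 1 library left out the adjusted p was 0.0241 to 0.0666, and it was 0.0504 with all 12 libraries in 1 fit. Hyou1, a large ER Hsp70 that also acts in hypoxia, was at 62.3, 72.7, 60.3 and 60.8 FPKM in the control group, at 61.8, 59.4, 53.3 and 52.7 in the PCOS group and at 63.5, 77.7, 66.6 and 78.2 in the PCOS-MV group. After MV its log2 fold change was 0.32 ± 0.0950 (SE), adjusted p = 0.0372, and the adjusted p was 0.0256 to 0.101 with 1 library left out.

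Hspa5 (BiP), the main ER Hsp70 and the standard readout of ER stress, was at 206, 253, 215 and 206 FPKM in the control group, at 233, 195, 146 and 189 in the PCOS group and at 189, 206, 235 and 162 in the PCOS-MV group. The 3 groups overlapped, and its log2 fold change was -0.22 ± 0.14 (SE), adjusted p = 0.288 in the PCOS group and 0.06 ± 0.16 (SE), adjusted p = 0.820 after MV. Hsp90b1 (Grp94), the ER Hsp90, had means of 196, 168 and 213 FPKM in control, PCOS and PCOS-MV ovaries and did not pass either test (adjusted p = 0.170 and 0.104), though after MV it passed without PCOS-MV replicate 1. Canx, the membrane-bound lectin chaperone, and Dnajc3, a co-chaperone that also restrains Perk, did not overlap between the PCOS and PCOS-MV groups. They had 118 to 141 against 148 to 153 FPKM and 35.8 to 45.3 against 47.5 to 50.8 FPKM, respectively, and missed the threshold (adjusted p = 0.0712 and 0.0781). The co-chaperones Dnajb9 and Dnajb11 and the secreted factor Manf did not pass in either comparison, with log2 fold changes of 0.01, -0.21 and -0.20 in the PCOS group and -0.18, 0.21 and 0.07 after MV. Dnajb9 was the 1 chaperone gene with a lower mean after MV (17.4 ± 0.671 FPKM) than in the PCOS group (20.1 ± 4.03). Dnajb11 passed after MV without PCOS replicate 1. RefSeq lists pseudogenes of Hsp90b1, so reads of this gene may be shared with them and its values are less certain.

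Of the 5 genes for disulfide isomerases and Creld2, none passed in the PCOS group (with limma, 1 at an unadjusted p under 0.05, P4hb), and P4hb and Pdia4 were upregulated after MV. The shares called were 0.0% and 40.0%, against 27.4% and 25.7% of all genes tested. P4hb, the protein disulfide isomerase that is also the beta subunit of collagen prolyl hydroxylase, was at 265, 291, 196 and 201 FPKM in the control group, at 184, 181, 158 and 181 in the PCOS group and at 279, 307, 262 and 314 in the PCOS-MV group. The PCOS libraries lay below all control and all PCOS-MV libraries. Its log2 fold change was -0.42 ± 0.14 (SE), adjusted p = 0.0562 in the PCOS group, which missed the threshold and passed it without Control replicate 3 or 4 (0.0255 to 0.133 over the 8 fits) and with all 12 libraries in 1 fit (0.0333). After MV it was 0.72 ± 0.0916 (SE), adjusted p = 0.00102, the lowest adjusted p of the 32 members, and it held in all 8 such fits. Over these fits the adjusted p ran from 0.000990 to 0.00492.

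Pdia4 was at 82.3, 88.4, 64.9 and 66.6 FPKM in the control group, at 68.5, 66.2, 57.4 and 60.4 in the PCOS group and at 79.4, 85.8, 66.5 and 86.6 in the PCOS-MV group. After MV its log2 fold change was 0.32 ± 0.10 (SE), adjusted p = 0.0479, but the groups overlapped and 7 of 8 fits with a library left out missed the threshold (0.0111 to 0.117). It also missed with all 12 libraries in 1 fit (0.0680) and with no filter on low values (0.0627). Pdia3, which acts on glycoproteins with Calr and Canx, and Pdia6 did not pass (log2 fold change after MV 0.16 ± 0.0859 (SE), adjusted p = 0.195, and 0.29 ± 0.12 (SE), adjusted p = 0.124). Creld2, an isomerase-like protein induced by ER stress, had means of 12.6, 11.6 and 11.8 FPKM and did not pass. RefSeq lists a pseudogene of Pdia4 and a gene like Pdia6, so these values too are less certain.

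The 7 genes of ER-associated degradation split. In the PCOS group Herpud1 rose, Syvn1 fell and 5 did not pass, and after MV Sel1l and Edem1 rose, Herpud1 fell and 4 did not pass. The shares called were 28.6% and 42.9%, against 27.4% and 25.7% of all genes tested. Herpud1 encodes an ER membrane protein with a ubiquitin-like domain that helps to assemble the Hrd1 degradation complex. It was at 93.6, 106, 97.6 and 86.8 FPKM in the control group, at 212, 138, 127 and 176 in the PCOS group and at 108, 79.5, 91.2 and 78.1 in the PCOS-MV group. Every PCOS library lay above every library of the other groups. The log2 fold change was 0.74 ± 0.16 (SE), adjusted p = 0.00908 in the PCOS group and -0.85 ± 0.18 (SE), adjusted p = 0.00937 after MV, and all 8 fits with 1 library left out kept both calls. An exact two-sided permutation test gave p = 0.0286 for both differences, the smallest value that 4 against 4 libraries allow.

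Syvn1 (Hrd1), the ubiquitin ligase at the core of that complex, was at 15.5, 15.5, 17.2 and 16.2 FPKM in the control group, at 12.7, 10.6, 9.66 and 9.48 in the PCOS group and at 13.8, 11.95, 15.7 and 11.4 in the PCOS-MV group. All 4 control libraries lay above all PCOS libraries, and the PCOS-MV libraries overlapped both. Its log2 fold change was -0.57 ± 0.0955 (SE), adjusted p = 0.00289 in the PCOS group, with the call kept in all 8 fits, and 0.29 ± 0.12 (SE), adjusted p = 0.119 after MV. Herpud1 and Syvn1, partners in 1 complex, thus had log2 fold changes of opposite sign in the PCOS group.

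Edem1, a lectin that passes misfolded glycoproteins on to degradation, was at 49.7, 45.8, 44.01 and 42.6 FPKM in the control group, at 43.1, 37.8, 37.6 and 40.1 in the PCOS group and at 44.97, 56.1, 58.6 and 54.9 in the PCOS-MV group. All PCOS-MV libraries lay above all PCOS libraries, with a log2 fold change of 0.42 ± 0.0949 (SE), adjusted p = 0.0132 that held in all 8 fits. Sel1l, the adaptor of Syvn1, had 26.7 ± 2.59, 22.3 ± 2.04 and 27.5 ± 1.44 FPKM in control, PCOS and PCOS-MV ovaries. In the PCOS group its log2 fold change was -0.25 ± 0.0942 (SE), adjusted p = 0.0824, which passed without Control replicate 1. After MV it was 0.29 ± 0.0808 (SE), adjusted p = 0.0296, which missed the threshold in 6 of 8 fits (0.0228 to 0.0808). The derlins, channel proteins of the same pathway, did not pass: Derl1 had means of 40.1, 39.7 and 43.96, Derl2 of 12.02, 11.1 and 12.2 and Derl3 of 2.49, 2.66 and 2.47 FPKM. RefSeq lists several pseudogenes of Derl1.

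**Figure D3:**
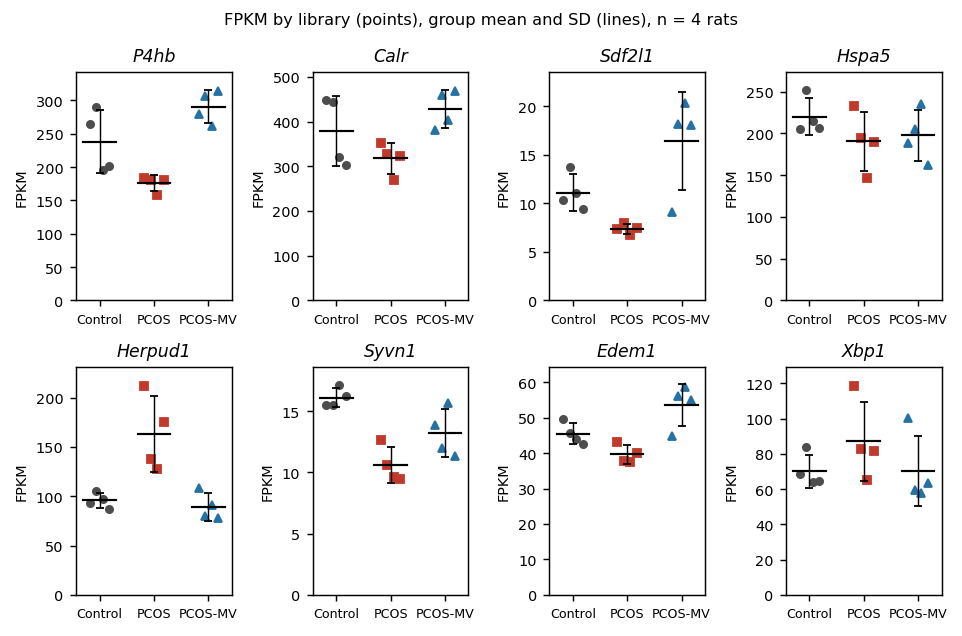
FPKM of 8 members by library (points) with the group mean and SD (lines), n = 4 rats per group, each panel starting at 0. P4hb and Sdf2l1 have their lowest means in the PCOS group and their highest after MV, Herpud1 is above the other groups in all 4 PCOS libraries, Syvn1 has its highest mean in the control group, and Hspa5 and Xbp1 overlap between all groups.

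Of the 3 sensors, none passed in the PCOS group (0 at an unadjusted p under 0.05), and after MV Atf6 was called higher, Ern1 lower and Eif2ak3 neither. In these comparisons 27.4% and 25.7% of all genes tested were called. Ern1 was at 7.02, 9.08, 14.3 and 12.5 FPKM in the control group, at 11.6, 12.1, 11.4 and 14.2 in the PCOS group and at 8.49, 10.9, 8.77 and 9.51 in the PCOS-MV group. The PCOS-MV libraries lay below the PCOS libraries, and the control libraries spanned a wider range than either. After MV the log2 fold change was -0.35 ± 0.10 (SE), adjusted p = 0.0336, and 6 of 8 fits with a library left out missed the threshold (0.0226 to 0.0852), as did the fit of all 12 libraries (0.166). Atf6 was at 24.7, 27.5, 30.8 and 27.01 FPKM in the control group, at 26.1, 23.2, 21.6 and 24.6 in the PCOS group and at 27.9, 29.02, 28.00 and 28.8 in the PCOS-MV group. Its log2 fold change after MV was 0.25 ± 0.0717 (SE), adjusted p = 0.0367, a call that 7 of 8 such fits lost (0.0242 to 0.0977). Eif2ak3 ranged from 6.21 to 7.78 FPKM over the 12 libraries.

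None of the 3 transcription factors passed in either comparison, against 27.4% of all genes tested in the PCOS group and 25.7% after MV. Xbp1 was at 68.7, 83.7, 63.9 and 64.3 FPKM in the control group, at 119, 82.7, 65.3 and 81.3 in the PCOS group and at 100.2, 59.7, 57.5 and 63.6 in the PCOS-MV group. PCOS replicate 1 and PCOS-MV replicate 1 were the highest of their groups, and the groups overlapped. In the PCOS group its log2 fold change was 0.28 ± 0.17 (SE), adjusted p = 0.264, and after MV it was -0.31 ± 0.22 (SE), adjusted p = 0.337. They are values of the whole gene, so the spliced and unspliced forms of Xbp1 mRNA, which tell whether Ire1 is active, cannot be told apart.

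Atf4 had 81.1 ± 7.23, 69.5 ± 5.41 and 80.4 ± 6.88 FPKM in control, PCOS and PCOS-MV ovaries. On the log2 scale the difference was -0.22 ± 0.0885 (SE), adjusted p = 0.102 in the PCOS group and 0.21 ± 0.0879 (SE), adjusted p = 0.121 after MV. Atf4 is controlled largely at translation, which RNA levels do not show. Ddit3 (Chop), the factor linked to cell death under lasting stress, was at 6.44, 9.35, 7.18 and 6.92 FPKM in the control group, at 5.20, 10.5, 10.9 and 7.29 in the PCOS group and at 4.77, 7.83, 6.70 and 9.28 in the PCOS-MV group, and its groups overlapped. The log2 fold change was 0.12 ± 0.21 (SE), adjusted p = 0.699 in the PCOS group and -0.20 ± 0.24 (SE), adjusted p = 0.583 after MV.

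Of the 4 targets of the integrated stress response, 1 passed in the PCOS group and 2 after MV. Of all genes tested, 27.4% were called in the PCOS group and 25.7% after MV. Chac1, an enzyme that breaks down glutathione, was downregulated in the PCOS group, Chac1 and the pseudokinase Trib3 were upregulated after MV, and Asns and Ppp1r15a did not pass. Chac1 was at 1.80, 1.02, 2.52 and 2.22 FPKM in the control group, at 0.358, 0.369, 0.399 and 0.320 in the PCOS group and at 0.455, 1.22, 1.03 and 1.09 in the PCOS-MV group. Every PCOS library lay below every other library. The log2 fold change was -1.06 ± 0.18 (SE), adjusted p = 0.00306 in the PCOS group, with all 8 fits keeping the call, and 0.50 ± 0.14 (SE), adjusted p = 0.0301 after MV, where 7 of 8 fits lost it (0.00301 to 0.0757), as did the fit of all 12 libraries (0.0693). At these low levels the log2(FPKM + 1) scale understates the change, and the means were 1.89, 0.362 and 0.948 FPKM. Only the control mean was above the 1 FPKM of the filter, so Chac1 was tested because of its control values. Both calls were kept with no filter on low values.

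Trib3 was at 1.82, 1.76, 1.46 and 0.490 FPKM in the control group, at 0.457, 0.399, 0.305 and 0.776 in the PCOS group and at 1.19, 3.59, 1.18 and 2.14 in the PCOS-MV group. The PCOS libraries lay below all PCOS-MV libraries, and Control replicate 4 fell within the PCOS range. The PCOS mean, 0.485 FPKM, was under the 1 FPKM of the filter, and the control and PCOS-MV means were above it. After MV the log2 fold change was 0.97 ± 0.24 (SE), adjusted p = 0.0193, which was lost without PCOS replicate 2 or 3 (0.0150 to 0.0540). In the PCOS group it was -0.65 ± 0.22 (SE), adjusted p = 0.0621, which passed without Control replicate 4 (0.00718 to 0.146).

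Asns, which makes asparagine, was at 14.9, 13.9, 7.45 and 5.40 FPKM in the control group, at 40.5, 15.1, 13.7 and 21.7 in the PCOS group and at 17.8, 29.1, 5.87 and 23.7 in the PCOS-MV group. The spread was wide in every group and all 3 overlapped. On the log2 scale the difference was 1.03 ± 0.39 (SE), adjusted p = 0.0841 in the PCOS group and -0.30 ± 0.49 (SE), adjusted p = 0.685 after MV. It passed in neither comparison. Ppp1r15a (Gadd34), which reverses the phosphorylation of eIF2alpha, had means of 11.99, 12.04 and 10.7 FPKM.

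**Figure D4:**
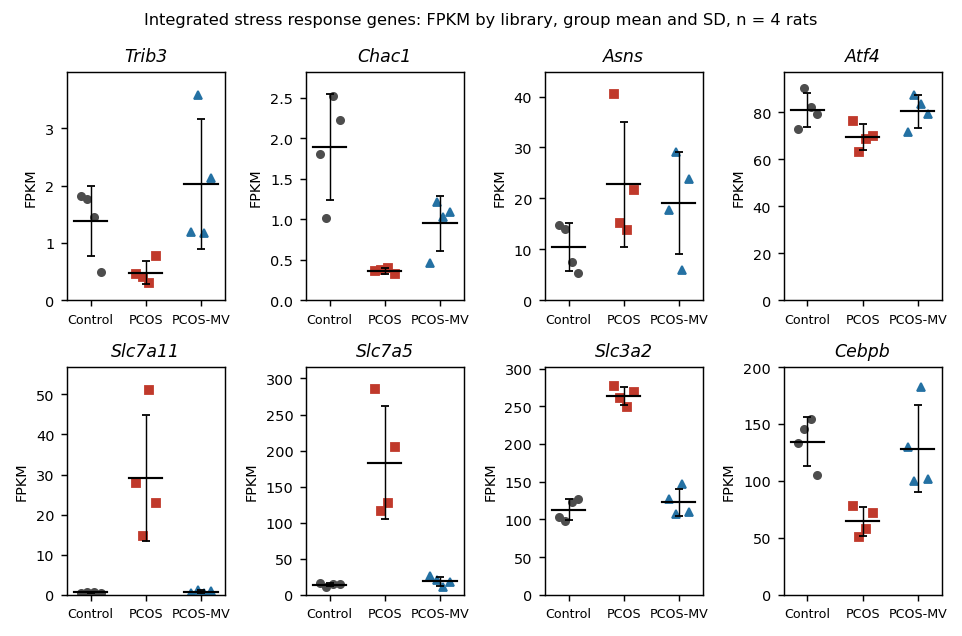
FPKM by library (points) with the group mean and SD (lines), n = 4 rats per group, for 4 members (Trib3, Chac1, Asns, Atf4) and 4 other integrated stress response genes (Slc7a11, Slc7a5, Slc3a2, Cebpb). Trib3, Chac1 and Cebpb have their lowest means in the PCOS group, while Slc7a11, Slc7a5 and Slc3a2 are highest there in every library.

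The same processes have other genes, taken from 5 further lists of ER and stress genes, with 111 tested. Of these, 18 rose and 16 fell in the PCOS group (30.6%, against 27.4% of all genes), and after MV 23 rose and 14 fell (33.3%, against 25.7%). Among 30 other integrated stress response genes, 6 rose and 6 fell in the PCOS group (40.0% called), and 11 rose and 6 fell after MV (56.7%). Slc7a11, the cystine transporter, was at 0.546, 0.707, 0.654 and 0.453 FPKM in the control group, at 27.8, 14.6, 51.1 and 22.9 in the PCOS group and at 0.423, 1.22, 0.391 and 0.937 in the PCOS-MV group. Slc7a5, a transporter of large neutral amino acids, was at 15.9, 10.9, 15.1 and 14.4 FPKM in the control group, at 285, 117, 128 and 205 in the PCOS group and at 26.7, 19.9, 11.2 and 18.1 in the PCOS-MV group. All 4 PCOS libraries lay far above every other library for both. The log2 fold changes were 4.11 ± 0.31 (SE), adjusted p = 4.95e-05, and 3.53 ± 0.27 (SE), adjusted p = 5.28e-05, in the PCOS group. After MV they were -4.000 and -3.17, both called lower. Slc7a11 was tested because of its PCOS values, as its control and PCOS-MV values lay near or under the 1 FPKM of the filter. At such low levels the size of its fold change depends on the 1 FPKM added before the log.

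Slc3a2, the heavy chain that pairs with both transporters, and Cebpb, a transcription factor that binds CARE elements, were added after their values were seen. Slc3a2 had 113 ± 14.5, 264 ± 11.6 and 123 ± 18.1 FPKM in control, PCOS and PCOS-MV ovaries, and Cebpb had 135 ± 21.5, 64.4 ± 12.6 and 128 ± 38.5.

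Of 25 other folding factors, 3 rose and 2 fell in the PCOS group, and 5 rose and 2 fell after MV. That is 20.0% and 28.0% called, against 27.4% and 25.7% of all genes tested. Ero1a, the oxidase that recharges disulfide isomerases and is also induced by hypoxia, was at 22.9, 21.1, 23.5 and 29.5 FPKM in the control group, at 14.3, 10.8, 10.1 and 11.7 in the PCOS group and at 23.7, 23.8, 16.9 and 23.00 in the PCOS-MV group. All PCOS libraries lay below all others, with a log2 fold change of -0.99 ± 0.13 (SE), adjusted p = 0.000817 in the PCOS group and 0.84 ± 0.14 (SE), adjusted p = 0.00320 after MV. Uggt1, which checks the folding of glycoproteins, moved in the same directions (-0.34 and 0.38, adjusted p = 0.0168 and 0.0114 with limma). Txndc5, another isomerase, was higher in the PCOS group (0.57 ± 0.0993 (SE), adjusted p = 0.00351) and did not pass after MV (-0.08 ± 0.14 (SE), adjusted p = 0.730).

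Of 21 genes of the translocon, signal peptidase and oligosaccharyltransferase, 3 rose and 1 fell in the PCOS group, and 2 rose and 3 fell after MV. That is 19.0% and 23.8% called, against 27.4% and 25.7% of all genes tested. Sec61b, a subunit of the channel through which new proteins enter the ER, had 51.7 ± 12.7, 108 ± 15.8 and 65.5 ± 13.5 FPKM in control, PCOS and PCOS-MV ovaries. Its log2 fold changes were 1.07 ± 0.18 (SE), adjusted p = 0.00282, and -0.73 ± 0.17 (SE), adjusted p = 0.0158. Dad1, a subunit of the oligosaccharyltransferase, had 50.5 ± 7.76, 83.3 ± 5.78 and 53.9 ± 5.44 FPKM, with log2 fold changes of 0.72 ± 0.11 (SE), adjusted p = 0.00212, and -0.62 ± 0.0895 (SE), adjusted p = 0.00181. In both genes all PCOS libraries lay above all other libraries. Over the 21 genes the median log2 fold change in the PCOS group was 0.03, with 14 positive and 7 negative. After MV it was 0.00, with 11 positive and 10 negative.

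Of 14 other regulators, 2 rose and 4 fell in the PCOS group, and 3 rose and 2 fell after MV. That is 42.9% and 35.7% called, against 27.4% and 25.7% of all genes tested. Nfe2l1, an ER-bound factor that controls proteasome genes, had 219.6 ± 22.7 FPKM in the control and 111 ± 2.61 in the PCOS group (-0.98 ± 0.0841 (SE), adjusted p = 8.64e-05). Its PCOS-MV libraries, at 219.5, 127, 326 and 133 FPKM, spread widely, and the difference from the PCOS group did not pass (0.75 ± 0.28 (SE), adjusted p = 0.0797). Creb3, a membrane-bound factor cut in a way like Atf6, was lower in the PCOS group (-0.45 ± 0.0860 (SE), adjusted p = 0.00566) and higher after MV (0.61 ± 0.0782 (SE), adjusted p = 0.00109). Map3k5 (Ask1), a kinase downstream of Ire1, was lower after MV (-0.50 ± 0.0907 (SE), adjusted p = 0.00535).

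Of 21 other degradation genes, 4 rose and 3 fell in the PCOS group, and 2 rose and 1 fell after MV. That is 33.3% and 14.3% called, against 27.4% and 25.7% of all genes tested. The ubiquitin ligase gene Tmem129 was lower in the PCOS group (-0.39 ± 0.0790 (SE), adjusted p = 0.00746) and higher after MV (0.39 ± 0.11 (SE), adjusted p = 0.0371). Selenos, a selenoprotein of the degradation complex, was higher in the PCOS group (0.38 ± 0.0717 (SE), adjusted p = 0.00506), and the ligase gene Rnf5 was lower after MV (-0.45 ± 0.10 (SE), adjusted p = 0.0138).

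Between the PCOS-MV and control groups 0 of the 32 members passed with limma, against 0.00745% of all genes tested (1 gene), and 3 had an unadjusted p under 0.05, against 8.50%. The 3 were Syvn1 (-0.28 ± 0.10 (SE), adjusted p = 0.556), Edem1 (0.23 ± 0.0980 (SE), adjusted p = 0.580) and Chac1 (-0.56 ± 0.21 (SE), adjusted p = 0.556). Derl1 was the member whose groups did not overlap, with 43.00 to 44.8 FPKM after MV against 38.4 to 42.9 in the control group, 1 member against 5.10% of all genes in either direction, with 1 higher against 2.81% and 0 lower against 2.29%. The median log2 fold change was 0.02 over the members and -0.00 over all genes. Sdf2l1, with 0.48 ± 0.24 (SE), adjusted p = 0.616, and P4hb, with 0.30 ± 0.15 (SE), adjusted p = 0.616, had means above those of the control group and did not pass, and Herpud1 differed by -0.11 ± 0.12 (SE), adjusted p = 0.787. A missed threshold does not show that the groups are alike.

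Markers of several ovarian cell types moved with the groups. Over all cell type lists 55 markers were tested, and 49.1% were called in the PCOS group and 32.7% after MV. Of all genes tested, 27.4% and 25.7% were called. The 7 luteal cell markers with a row summed to 4286 to 8026 FPKM in control ovaries, 1839 to 3485 in PCOS ovaries and 2977 to 6943 in PCOS-MV ovaries, with 2 called higher and 4 lower in the PCOS group and 2 higher and 1 lower after MV. The 4 theca cell markers summed to 46.8 to 91.9 FPKM in control ovaries, 1578 to 3075 in PCOS ovaries and 27.2 to 125 in PCOS-MV ovaries, with 2 higher and 1 lower in the PCOS group and 3 lower after MV. The 8 granulosa cell markers summed to 656 to 915 FPKM in control ovaries, 1097 to 1557 in PCOS ovaries and 615 to 1124 in PCOS-MV ovaries, with 4 higher in the PCOS group and 3 lower after MV. The labelled tissue thus held the markers of the ovary in all 12 libraries. By mean over all libraries the highest luteal marker was Star (1663 FPKM), the highest theca marker Cyp17a1 (421) and the highest granulosa marker Inha (615). Each sum leans on its highest gene and is not a measure of cell number.

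The 4 endothelial markers summed to 80.6 to 103 FPKM in control ovaries, 46.99 to 57.7 in PCOS ovaries and 68.4 to 95.6 in PCOS-MV ovaries, with 4 lower in the PCOS group and 2 higher after MV. The 7 markers written for plasma cells, which have a large ER, summed to 112 to 282 FPKM in control ovaries, 16.5 to 19.5 in PCOS ovaries and 56.7 to 138 in PCOS-MV ovaries, most of it Sdc1, which other cells also express. Only 4 of the 7 were tested, with 3 lower in the PCOS group and 2 higher after MV. Of the markers of adipocytes 4 of 4 tested were lower in the PCOS group and 1 was higher after MV. Of those of leukocytes 2 of 7 were higher in the PCOS group and 1 higher and 2 lower after MV. Of those of proliferation 1 of 5 was lower in the PCOS group and 0 passed after MV. Of oocyte and smooth muscle markers 0 passed in either comparison, and of 2 oviduct markers tested 1 was lower after MV. None of these markers was at 0 in every library, and their part in the results of the members was not tested.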

How the data were processed

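Total RNA of rat ovary was sequenced in 12 libraries, 1 per rat. Per the paper, the authors aligned the reads with HISAT2, counted them with featureCounts and computed from counts and gene lengths the FPKM values they deposited; the submitters' processing notes name STAR 2.5.1b and HTSeq 0.6.0 instead, and which made the table could not be settled. The genome build, and whether counting used strand, are not given in the sources used here. The authors' fold changes and p-values, also in the file, were not used. Columns were mapped to samples by name, those named MG to the PCOS-MV rats, the group left after the control and PCOS columns were matched.

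Each gene's values were repeated on its transcript lines (26928 lines, 19730 genes). Genes with a mean of 1 FPKM or more (13430) were put on the log2(FPKM + 1) scale. The test was limma-trend (limma 3.58.1, R 4.3.3), the groups being compared in pairs (4 against 4, no covariate), and called at a Benjamini-Hochberg adjusted p under 0.05. All fold changes are on this scale, which understates those of low genes. For single values the exact permutation test (two-sided) was added. limma was tested on simulated data with changes larger than those of any member, so that test does not bear on calls near the threshold. FPKM holds no read numbers, so depth is unknown, and the number of rats limits precision; nothing in the labels says that a number pairs rats, and same-numbered libraries did not deviate together in every pair.

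All members were named, with the other list genes that had the 2 largest called changes without overlap in each list. The members, lists and tests were chosen with earlier results of these data known. Promoters came from RefSeq (GRCr8).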

Additional observations from a re-analysis of the deposited data

Results flagged for a closer look

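In each of the 32 members and 3 groups, the gap between the highest or lowest library and its nearest neighbour was set against the group's range, and 3 of 96 groups passed Dixon's critical value for 4 samples, where chance gives about 1 in 20 groups. Hyou1 was at 72.7 FPKM in Control replicate 2, with the other control libraries at 60.3 to 62.3. P4hb was at 158 FPKM in PCOS replicate 3, with the other PCOS libraries at 181 to 184, and its call after MV held without that library. Xbp1 was at 100.2 FPKM in PCOS-MV replicate 1, with the other PCOS-MV libraries at 57.5 to 63.6.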

How the results depend on the processing

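The number of members called higher and lower in the PCOS group was 1 and 3, and after MV 10 and 2. Pseudocounts of 0.1 and 5, no filter on low values and rescaling by the median ratio kept these counts within 1.5 times, and no member that was called changed sign under any alternative run. With a 2-fold threshold the counts were 0 and 1 in the PCOS group (Chac1) and 1 and 0 after MV (Sdf2l1). With all 12 libraries in 1 fit, 7 members were higher and 1 lower after MV, without Calr, Pdia4, Chac1 and Ern1, and in the PCOS group Sdf2l1 was lost and P4hb gained (1 higher, 3 lower). With no filter on low values Pdia4 was lost after MV. Leaving out each library in turn gave 1 to 1 higher and 3 to 5 lower members in the PCOS group, 3 to 9 higher and 1 to 2 lower after MV, and 0 between the PCOS-MV and control groups; fewer libraries were tested there. Without Control replicate 3 there were 1 higher and 4 lower members in the PCOS group, and without Control replicate 4 there were 5 lower.

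With the replicate number as a block, 2 members were higher and 4 lower in the PCOS group, with Asns (adjusted p = 0.0496 in limma) and P4hb (0.0477) gained. After MV 7 were higher and 3 lower, without Hyou1 (0.0694), Sel1l (0.0689) and Atf6 (0.0693) and with Xbp1 (0.0392). The deviations of same-numbered libraries correlated at -0.03 to 0.02 between the control and PCOS groups, at 0.10, 0.17, 0.14 and 0.04 between the PCOS and PCOS-MV groups, where replicates 1 to 3 correlated best with their own number and replicate 4 did not, and at -0.05 to 0.22 between the control and PCOS-MV groups. Since not every pair was over 0.1 and the labels name nothing shared, the numbers were not taken to pair the rats. For the called members, leaving out a library ended the call in 45 of 96 fits after MV and in 0 of 32 in the PCOS group, and members not called passed in 2 and 4 fits; the cause was not tested.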
